A study of Mus musculus with 6 samples.

Results

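The miR-466 and miR-297 families were taken as every mature miRNA entry whose name starts with miR-466 or miR-297, with any letter and any arm. They made up 36 of the 685 entries measured. The miR-466 family had 30 entries, of which 13 were 3p, 13 were 5p and 4 (miR-466f, miR-466g, miR-466j and miR-466k) carried no arm in their name. The miR-297 family had 6 entries, 3 of each arm. Entries with the same value in all 6 libraries were treated as 1: miR-297a-3p stood for miR-297b-3p and miR-297c-3p as well, miR-466c-3p for miR-466p-3p, and miR-466d-5p for miR-466n-5p. This left 32 distinct entries, 28 of miR-466 and 4 of miR-297.

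The libraries came from N2a cells, a mouse neuroblastoma line, kept for 96 h in medium with 10 µM retinoic acid and 2% serum so that they grew neurites. The RSL3 group then received 5 µM RSL3 for 24 h, an inhibitor of the lipid peroxide-reducing enzyme GPX4 that triggers ferroptosis, and the DMSO group received the solvent. Each group had 3 small RNA libraries of 1 cell line. The labels do not say whether these were separate cultures, so p-values measure the spread between these libraries, which may be technical.

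A miRNA is cut from a hairpin RNA, and either side of the hairpin, the 5p or the 3p arm, can be kept as the mature strand. Bases 2 to 8 of the mature strand, the seed, pair with target mRNAs. Hairpins of the miR-466 and miR-297 families are rich in simple repeats of few letters, such as alternating U and G, and most copies lie among the miR-467 and miR-669 hairpins in an intron of Sfmbt2, a Polycomb-group gene that is imprinted in the mouse placenta. Because the copies resemble each other closely, a short read can match several of them.

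The RefSeq table of build GRCm38.p6 gave a mature sequence for 3 of the 36 entries. They are shown for their repeat content, with the seed in capitals. All 3 have their hairpin outside Sfmbt2, so they do not show the sequence of members inside it.

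miR-466k: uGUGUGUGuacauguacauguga

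miR-466j: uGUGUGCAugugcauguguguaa

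miR-466i-3p: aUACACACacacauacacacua

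The miR-466k strand (chr3:85467396-85467418, plus strand) began with an alternating U and G run of 9 bases, and 69.6% of its bases were G or U. The longest such run in miR-466j (chr10:60960802-60960824, plus strand) was 7 bases, and 73.9% of its bases were G or U. The 3p strand of miR-466i (chr13:17747552-17747573, plus strand) had the complementary composition, with an alternating A and C run of 11 bases and 86.4% A or C. The 3 seeds, in capitals above, differed from each other. The other entries had no mature sequence here, so whether members share a seed is not known from these data. The letters UGUGUGU were in 11 of the 1679 mature names of the table (0.655%), among them miR-466j and miR-466k, and ACACACA was in 5 (0.298%), among them miR-466i-3p. The search read the mature strand as listed and allowed overlapping matches.

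The hairpins of miR-466k and of the first miR-297a copy show how far the repeat extends in these copies, which both lie outside Sfmbt2. In the first, the mature strand is in capitals.

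Mir466k: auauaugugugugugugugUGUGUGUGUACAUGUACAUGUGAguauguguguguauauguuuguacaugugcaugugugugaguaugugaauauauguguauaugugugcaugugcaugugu

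Mir297-1: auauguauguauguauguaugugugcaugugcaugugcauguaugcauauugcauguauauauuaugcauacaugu

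The Mir466k hairpin (chr3:85467377-85467498, plus strand) is 122 bases long and held UGUGUGU 12 times, counting overlaps, with a longest alternating U and G run of 23 bases. The Mir297-1 hairpin (chr7:10958437-10958512, minus strand) is 76 bases long and held AUGUAUG 5 times and UGUGUGU 0 times. Of the 1005 hairpins in the table, 25 held UGUGUGU (2.49%) and 8 held AUGUAUG (0.796%).

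By name, the GENCODE annotation of GRCm38 placed 33 hairpins of the 2 families, and 28 of them lay inside Sfmbt2 (chr2:10370510-10595253, plus strand), on its strand. They spanned 50.5 kb, from chr2:10466663 to chr2:10517164, with no annotated Sfmbt2 exon in between, so all 28 were intronic. Some mature names had several hairpins: miR-466b had 8, miR-466f and miR-297a had 4 each, and miR-466c had 2, and reads of such a name cannot be assigned to 1 copy. Of the 19 names without their arm, 16 had a hairpin inside Sfmbt2. The 3 that did not were miR-466i (chr13:17747473-17747593, opposite an intron of the kinase gene Cdk13), miR-466j (chr10:60960723-60960844, intergenic) and miR-466k (opposite an intron of Gm37240).

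**Figure D1:**
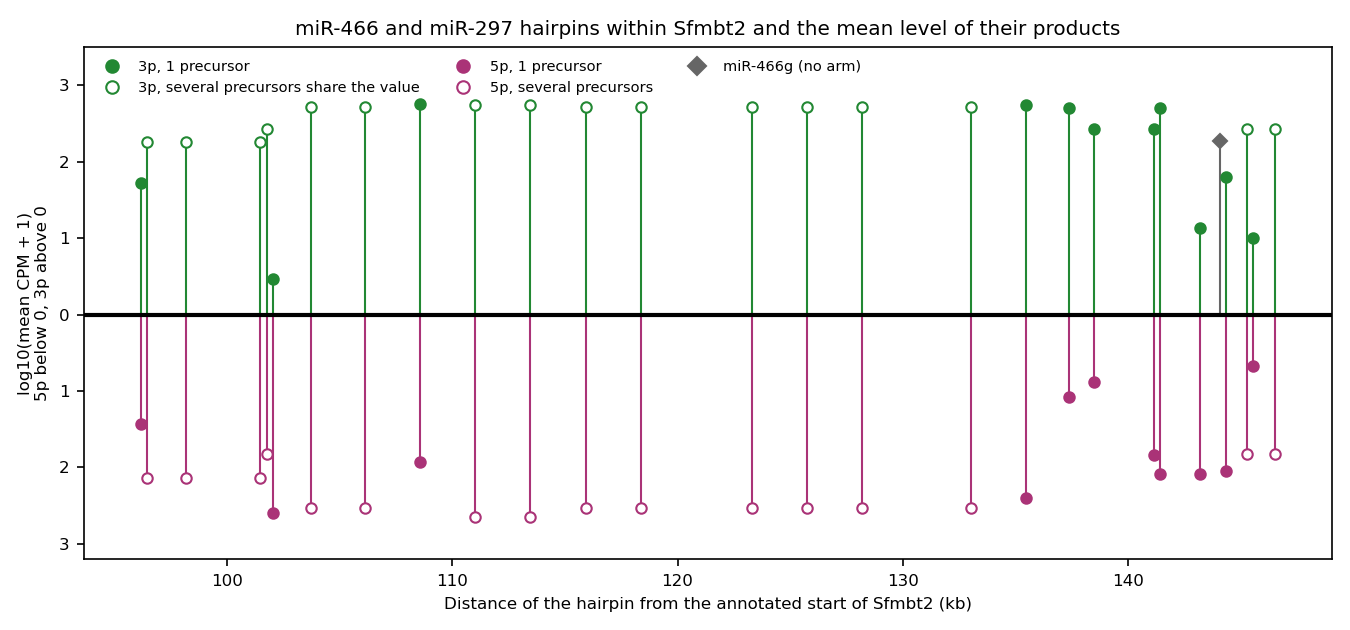
Hairpins of the 2 families along Sfmbt2, by distance from the annotated start of the gene in kb, with the mean level of the 3p product above the line and of the 5p product below it, as log10(mean CPM + 1) over the 6 libraries. Open circles mark names with several hairpins, whose level is 1 shared value, and the grey diamond is miR-466g, which has no named arm. Identical values are drawn for miR-297a, b and c (3p), for miR-466c and miR-466p (3p), and for miR-466d and miR-466n (5p). The 28 hairpins lie 96.2 to 147 kb from the start, and the 3p product is the higher one for most names with both arms.

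Levels are given as CPM, reads scaled to the size of the library, with a further scaling factor per library applied by the authors. The 2 families held a small part of the signal: the distinct miR-466 entries summed to 0.528% to 0.582% of a library and the distinct miR-297 entries to 0.0355% to 0.0519%. The recovered reads of all miRNAs were 4306460 to 6058006 per DMSO library and 3406276 to 4989380 per RSL3 library. In the labelled cell type, neuron, 8 of 8 marker miRNAs were listed. They summed to 216937 to 292717 CPM (DMSO) and 184403 to 232115 CPM (RSL3), most of it miR-7a-5p. The group means of miR-7a-5p were 225023 CPM (DMSO) and 181728 CPM (RSL3). Those of miR-218-5p, miR-9-5p and miR-128-3p ran from 2019 to 18269 CPM. The other neuron markers, miR-124-3p, miR-9-3p, miR-137-3p and miR-138-5p, had group means of 64.4 to 179 CPM. The epithelial marker miR-203-3p was higher than these, at 410 CPM (DMSO) and 391 CPM (RSL3). Markers of other cell types were low or moderate in both groups: blood and immune markers (3 of 5 listed) summed to 64.6 to 91.3 CPM (DMSO) and 65.3 to 124 CPM (RSL3), muscle markers (4 of 4) to 156 to 276 and 123 to 186 CPM, glial markers (3 of 3) to 137 to 178 and 143 to 190 CPM, epithelial markers (3 of 5) to 394 to 457 and 355 to 446 CPM, and the liver marker miR-122-5p lay at 1.41 to 3.54 and 2.41 to 5.96 CPM. The pluripotency markers had 1 of 6 listed, at 0.222 to 1.57 and 0.508 to 2.21 CPM. Their part in the results below was not tested.

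Among the members, mean levels over the 6 libraries ran from 1.91 CPM for miR-466o-3p to 559 CPM for miR-466e-3p, with a median of 130 CPM over the 32 distinct entries. The most abundant member, miR-466e-3p, was number 101 of the 685 entries by level. The fewest reads in any library were 3 (miR-466o-3p in RSL3 library 1), and 25 of the 32 distinct entries had at least 50 reads in every library. All 36 entries reached 1 CPM in at least 3 libraries and were tested, among 666 tested miRNAs in all.

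**Figure D2:**
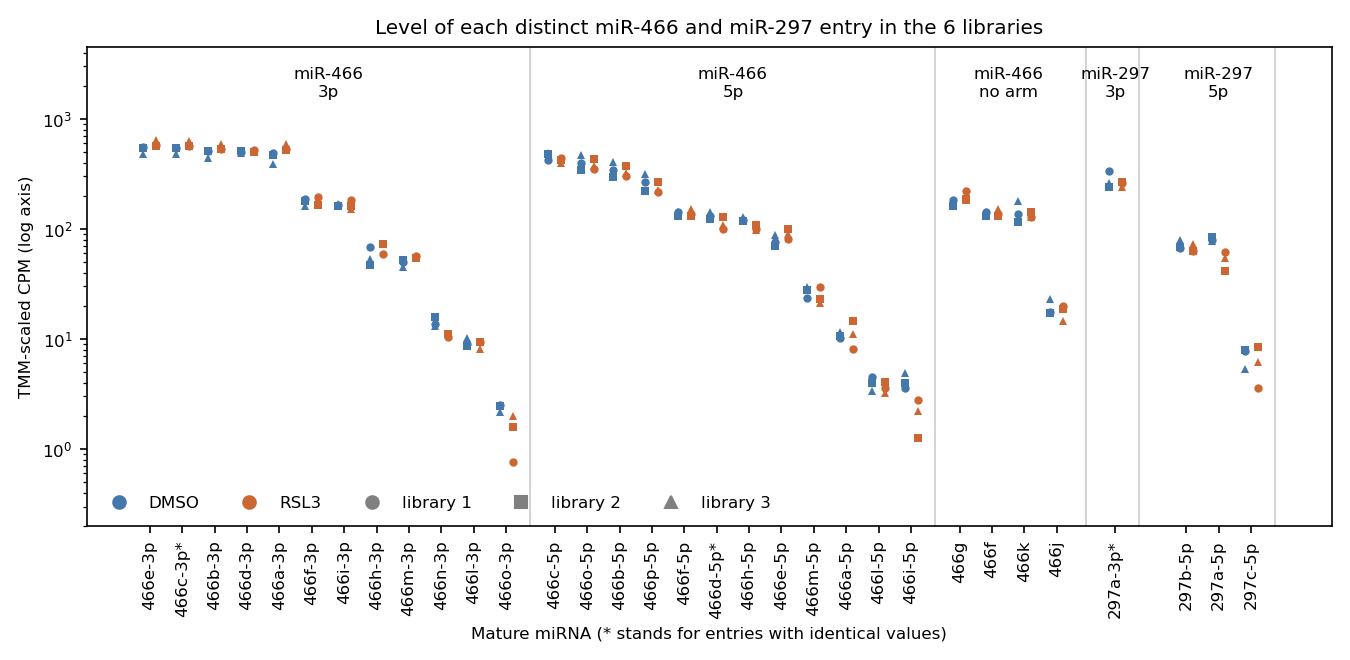
Level of each of the 32 distinct entries in each library, on a log axis of CPM, grouped by family and arm. Blue points are DMSO and orange points RSL3 libraries, and the marker gives the library number. Most DMSO and RSL3 values lie on top of each other, and the separated miR-297a-5p values are 78.3 to 84.6 CPM with DMSO and 41.4 to 61.3 CPM with RSL3.

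No member passed the test for a difference between RSL3 and DMSO libraries. In limma at an adjusted p under 0.05, 0 of the 36 entries were higher and 0 lower, where 4 of 666 miRNAs (0.601%) were higher and 1 (0.15%) was lower, or 0.751% in either direction. At an unadjusted p under 0.05 in limma, 1 member was higher (miR-466a-3p) and 2 were lower (miR-297a-5p and miR-466i-5p), against 8.86% and 8.41% of all tested miRNAs. With edgeR on recovered reads 0 members passed either way (0.601% higher and 0.3% lower in all), with 1 member higher and 2 lower before adjustment (8.86% and 8.11% in all). DESeq2 called 1 member lower, miR-297a-5p (adjusted p = 0.017), and 0 higher, where it called 3.15% of all miRNAs lower and 2.85% higher, and it gave no adjusted p to 7 of the 36. Before adjustment it had 0 members higher (7.21% in all) and 1 lower (7.06%). Members' standard errors ran from 0.10 to 0.28 on the log2 scale.

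The 3 RSL3 libraries lay entirely above the 3 DMSO libraries in 6 of the 36 entries (16.7%, against 12.3% of all tested miRNAs) and entirely below them in 5 (13.9%, against 12.0%). Counted once per distinct entry these were 5 and 5 of 32. All 5 higher ones were 3p strands (miR-466a-3p, miR-466b-3p, miR-466c-3p, miR-466e-3p and miR-466m-3p, the last outside the naming rule and chosen after its values were seen). All of them but miR-466m-3p are nearly equal entries that may share reads, so the 5 are not separate observations. The 5 lower ones were miR-297a-5p, miR-466h-5p, miR-466i-5p, miR-466o-3p and miR-466n-3p, the last also outside the rule. Under plain CPM, without the further scaling factor, the groups overlapped in each of the 5 higher strands. The 5 lower ones stayed apart.

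**Figure D3:**
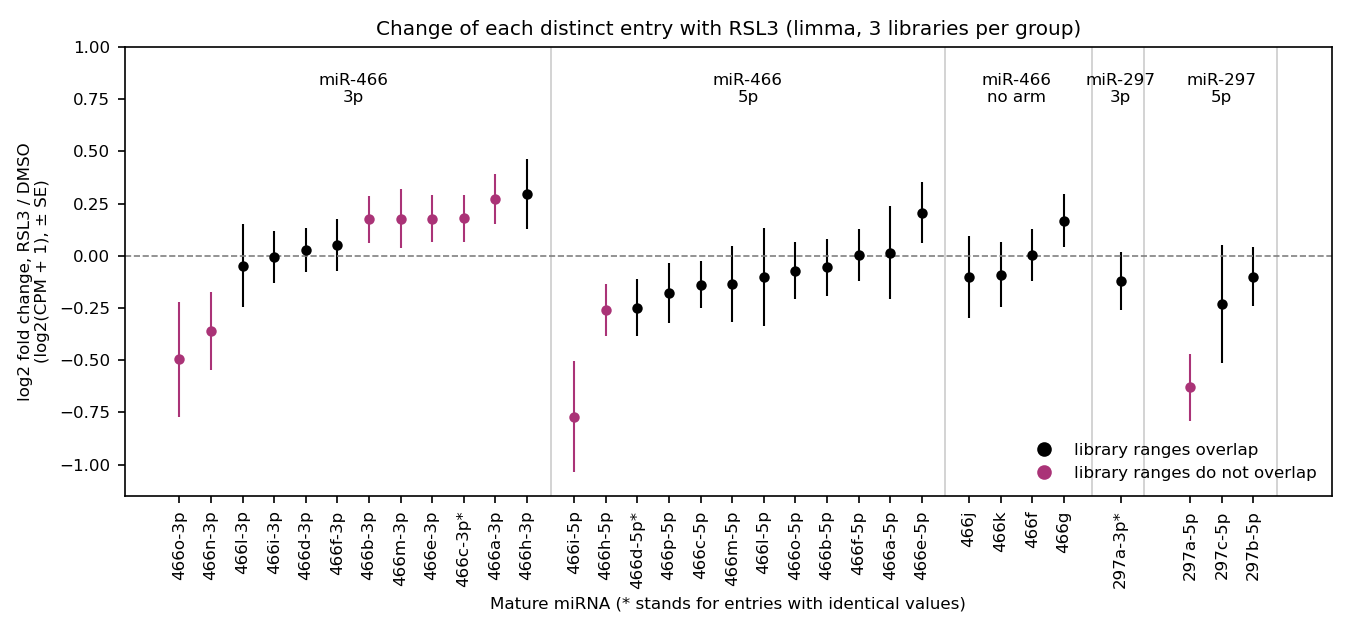
Log2 fold change (RSL3 over DMSO) of each distinct entry on the log2(CPM + 1) scale, with bars of 1 standard error from limma and 3 libraries per group. Entries whose library ranges do not overlap are in purple (5 higher, 5 lower). The 5 higher ones do overlap under plain CPM. The values run from -0.77 for miR-466i-5p to 0.30 for miR-466h-3p, and no entry passed the adjusted threshold.

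Of the 5p strands, miR-297a-5p came closest to a call. It was at 79.5, 84.6 and 78.3 CPM in the DMSO libraries, in the order 1 to 3, and at 61.3, 41.4 and 54.7 CPM in the RSL3 libraries. Every RSL3 value lay below every DMSO value, and the RSL3 values were more spread. The means were 80.8 ± 3.32 and 52.5 ± 10.1 CPM (SD, n = 3 per group). The log2 fold change was -0.63 (SE 0.16), at an adjusted p of 0.072 in limma. Over the alternatives the adjusted p ran from 0.017 to 0.35, and it was under the threshold in DESeq2, after rescaling without the 5 most abundant miRNAs (0.044) and without RSL3 library 1 (0.041). The strand rests on 132 to 507 reads per library.

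The other miR-297 5p strands did not separate the groups. The level of miR-297b-5p was 66.6, 67.9 and 78.9 CPM with DMSO against 63.0, 63.4 and 72.2 CPM with RSL3, with a log2 fold change of -0.10 (SE 0.14, adjusted p = 0.73 in limma). Leaving out DMSO library 3 gave -0.025, and leaving out RSL3 library 3 gave -0.16. The lowest strand of the family, miR-297c-5p, was at 7.84, 7.99 and 5.31 CPM with DMSO against 3.56, 8.47 and 6.22 CPM with RSL3 (log2 fold change -0.23, SE 0.28, adjusted p = 0.70 in limma). Their ranges overlapped.

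The shared 3p value of miR-297a, miR-297b and miR-297c was 339, 241 and 262 CPM with DMSO against 259, 266 and 242 CPM with RSL3. DMSO library 1 stood above the other 5 values, which lay close together. The log2 fold change was -0.12 (SE 0.14, adjusted p = 0.67 in limma), and 0.021 without DMSO library 1. This strand made up 65.4% of the signal of the distinct miR-297 entries.

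The 5 abundant 3p strands of miR-466 were between 393 and 637 CPM in every library. The level of miR-466a-3p was 493, 473 and 393 CPM with DMSO against 529, 522 and 586 CPM with RSL3, so that the groups did not overlap. Its means were 453 ± 53.1 and 546 ± 35.1 CPM (SD, n = 3 per group), for a log2 fold change of 0.27 (SE 0.12, adjusted p = 0.27 in limma), which was 0.17 without DMSO library 3. For miR-466b-3p the values were 510, 505 and 444 CPM with DMSO against 530, 530 and 587 CPM with RSL3, again without overlap (log2 fold change 0.18, SE 0.11, adjusted p = 0.43 in limma). Under plain CPM the groups overlapped in both strands.

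The pair miR-466c-3p and miR-466e-3p followed miR-466b-3p. The values of miR-466c-3p were 548, 542 and 476 CPM with DMSO against 570, 569 and 631 CPM with RSL3, and those of miR-466e-3p were 552, 544 and 478 and then 573, 571 and 637 CPM. Both had a log2 fold change of 0.18, at an adjusted p of 0.43 in limma, and without DMSO library 3 the values of miR-466b-3p, miR-466c-3p and miR-466e-3p were each 0.11. The equally abundant miR-466d-3p was at 501, 512 and 490 CPM with DMSO against 523, 496 and 515 CPM with RSL3, with overlapping groups and a log2 fold change of 0.029 (adjusted p = 0.90 in limma), which was negative under plain CPM and after rescaling without the 5 most abundant miRNAs.

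The number of reads by which nearly equal entries differed was compared after the values had been seen. Leaving miR-466d-3p aside, miR-466a-3p had the fewest reads in every library, then miR-466b-3p, then miR-466c-3p, then miR-466e-3p. The excess of miR-466c-3p over miR-466b-3p was nearly constant, at 6.72% to 6.90% of miR-466c-3p in DMSO and 6.89% to 7.09% in RSL3 libraries. The excess of miR-466e-3p over miR-466c-3p was 0.330% to 0.823%. In contrast, the excess of miR-466b-3p over miR-466a-3p was 106, 146 and 259 reads with DMSO but 4, 25 and 5 reads with RSL3. On the CPM scale this was 33.3 ± 17.2 in DMSO and 3.29 ± 3.95 in RSL3 libraries, without overlap, or 3.26% to 11.5% and 0.171% to 1.48% of miR-466b-3p. The tables do not show which reads entered which entry, and this difference was not tested because it was picked for its size. It comes from the same reads as the larger log2 fold change of miR-466a-3p than of the other 3 strands, and is not a separate observation.

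**Figure D4:**
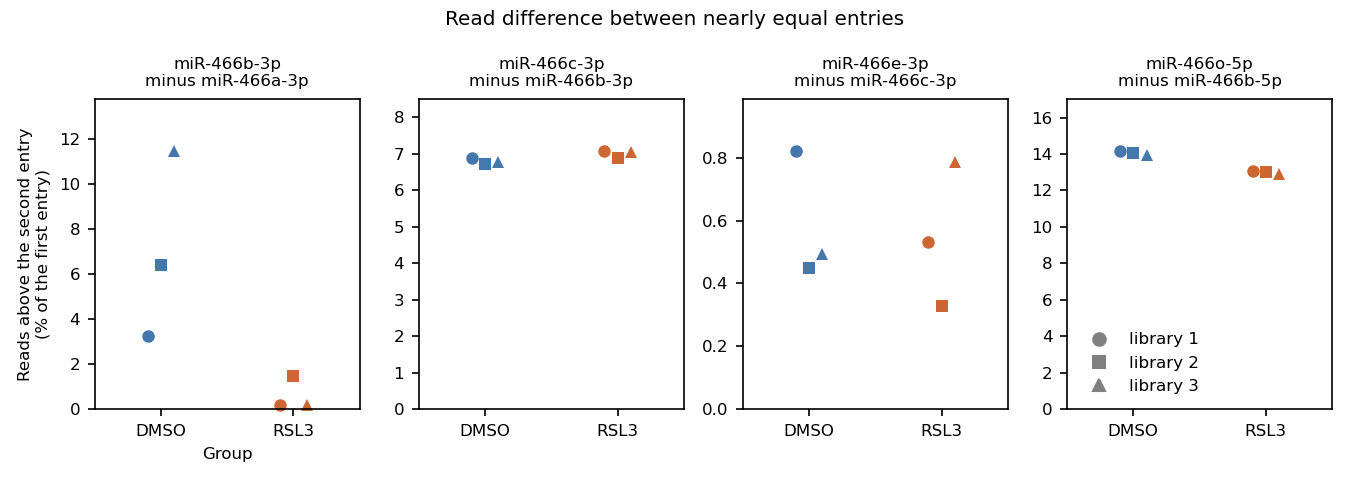
Reads by which one entry exceeds a nearly equal one, as a percent of the first entry, in each DMSO and RSL3 library for 4 pairs of miR-466 entries; each panel has its own axis from 0. The excess of miR-466b-3p over miR-466a-3p is 3.26% to 11.5% in DMSO and at most 1.48% in RSL3 libraries, while the excess of miR-466c-3p over miR-466b-3p stays between 6.72% and 7.09%.

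Among the 5p strands of miR-466, the most abundant did not separate the groups. The level of miR-466c-5p was 427, 477 and 492 CPM with DMSO against 442, 424 and 401 CPM with RSL3 (log2 fold change -0.14, SE 0.11, adjusted p = 0.55 in limma). The values of miR-466o-5p were 399, 345 and 472 CPM and then 352, 430 and 370 CPM (-0.072, adjusted p = 0.81 in limma). In both strands the ranges overlapped.

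The next in level, miR-466b-5p, was at 342, 297 and 407 CPM with DMSO against 306, 374 and 322 CPM with RSL3 (-0.055, adjusted p = 0.86 in limma), and miR-466p-5p at 265, 223 and 318 and then 218, 266 and 224 CPM (-0.18, adjusted p = 0.55 in limma). The value of miR-466p-5p was -0.049 without DMSO library 3 and -0.30 without DMSO library 2. These last 3 strands shared a profile over the 6 libraries, high in DMSO library 3 and RSL3 library 2. The reads of miR-466o-5p exceeded those of miR-466b-5p by 13.9% to 14.2% of miR-466o-5p in DMSO and 12.9% to 13.1% in RSL3 libraries.

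The strand miR-466h-5p has been described in cultured rodent cells as a pro-apoptotic miRNA that responds to nutrient depletion and oxidative stress. Its values were 120, 119 and 127 CPM with DMSO against 99.9, 108 and 97.9 CPM with RSL3, so that all RSL3 libraries lay below all DMSO libraries. The means were 122 ± 4.44 and 102 ± 5.51 CPM (SD, n = 3 per group), for a log2 fold change of -0.26 (SE 0.12, adjusted p = 0.30 in limma). Its 3p partner, miR-466h-3p, was at 68.5, 46.6 and 53.1 CPM with DMSO against 59.2, 73.4 and 73.0 CPM with RSL3, with overlapping groups (log2 fold change 0.30, SE 0.17, adjusted p = 0.38 in limma). Its value was 0.17 without DMSO library 2 and 0.45 without DMSO library 1.

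The low strand miR-466i-5p had the most negative value of the families at a pseudocount of 1, but not at a pseudocount of 5, where it was -0.38 beside -0.59 for miR-297a-5p. It had 23, 18 and 25 reads with DMSO against 11, 4 and 11 reads with RSL3, or 3.60, 4.00 and 4.92 CPM and 2.80, 1.26 and 2.21 CPM. The groups did not overlap, and the log2 fold change was -0.77 (SE 0.27, adjusted p = 0.14 in limma), with -0.96 in DESeq2. The abundant strand of the same hairpin, miR-466i-3p, was at 166, 161 and 167 CPM and then 183, 161 and 150 CPM, with means of 165 CPM in both groups (log2 fold change -0.0050, adjusted p = 0.99 in limma).

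The lowest member, miR-466o-3p, had 16, 11 and 11 reads with DMSO against 3, 5 and 10 reads with RSL3, or 2.51, 2.44 and 2.16 CPM and 0.762, 1.57 and 2.01 CPM. Counting error alone is large at these numbers, since 3 reads, up to which a true level can give 0 reads, correspond to 0.470 to 0.941 CPM depending on the library. Its log2 fold change was -0.50 (SE 0.28, adjusted p = 0.37 in limma), but -0.28 without RSL3 library 1 and -0.20 at a pseudocount of 5.

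The entries without an arm overlapped between the groups. The level of miR-466g was 184, 162 and 180 CPM with DMSO against 223, 186 and 182 CPM with RSL3 (log2 fold change 0.17, SE 0.13, adjusted p = 0.52 in limma), and the value was 0.076 without RSL3 library 1. The values of miR-466k, the U and G repeat strand shown above, were 137, 117 and 178 CPM and then 129, 142 and 128 CPM (-0.090, adjusted p = 0.79 in limma). Those of miR-466j were 17.4, 17.1 and 23.0 CPM and then 19.8, 18.8 and 14.6 CPM (-0.10, adjusted p = 0.82 in limma).

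The entry named miR-466f had 141, 131 and 143 CPM with DMSO against 135, 130 and 153 CPM with RSL3 (0.0058, adjusted p = 0.99 in limma), and its sign was negative under plain CPM and after rescaling without the 5 most abundant miRNAs. Its reads differed from those of miR-466f-5p by at most 0.788% in any library, so these 2 names are close to 1 measurement. The other 10 distinct entries, none of them named by the rule, had log2 fold changes from -0.36 (miR-466n-3p) to 0.21 (miR-466e-5p).

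Grouped by arm, 8 of 12 distinct miR-466 3p strands had a positive log2 fold change, with a median of 0.11, and 9 of 12 distinct 5p strands a negative one, with a median of -0.12. All tested 3p and 5p strands had medians of 0.0042 and -0.031. Under plain CPM or rescaling without the 5 most abundant miRNAs, 6 of the 12 miR-466 3p strands were positive and 11 of the 12 5p strands negative. These scalings lower the other miRNAs too: under plain CPM 131 of all 304 tested 3p strands were positive (median -0.051) and 172 of all 294 tested 5p strands negative (median -0.090), and after the rescaling the medians were -0.044 and -0.083. All 4 distinct miR-297 entries had a negative value under each scaling tried. Their median was -0.17 as reported, beside a median of 0.0013 over the 666 tested miRNAs. Under plain CPM the 2 medians were -0.23 and -0.056, and after the rescaling -0.24 and -0.050. The value of miR-297a-3p was 0.021 without DMSO library 1, and that of miR-297c-5p was 0.057 without RSL3 library 1. These counts and medians are over entries that may share reads, and carry no test.

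Summed over distinct entries, the 3p strands of miR-466 came to 3102, 3041 and 2734 CPM in DMSO libraries 1 to 3 and 3240, 3165 and 3443 CPM in RSL3 libraries 1 to 3, a ratio of means of 1.11. The groups did not overlap in this sum, but they did under plain CPM, after rescaling without the 5 most abundant miRNAs, and also when miR-466a-3p, miR-466b-3p, miR-466c-3p and miR-466e-3p were counted once, which gave 1498 ± 67.7 and 1598 ± 48.7 CPM (SD, n = 3 per group) and a ratio of 1.07. The 5p sum was 1944, 1832 and 2241 CPM and then 1778, 2003 and 1801 CPM, with a ratio of 0.928 and overlapping groups. Under plain CPM the 5p sums did separate, with all RSL3 libraries below all DMSO libraries and a ratio of 0.890. The armless entries summed to 476 ± 48.6 and 487 ± 17.0 CPM.

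For miR-297, the 5p sum was 154, 160 and 163 CPM with DMSO against 128, 113 and 133 CPM with RSL3. All RSL3 sums lay below all DMSO sums, with a ratio of means of 0.785, and most of this difference came from miR-297a-5p. Over both arms the miR-297 sum was 440 ± 47.0 and 380 ± 5.70 CPM and the miR-466 sum 5441 ± 124 and 5630 ± 99.1 CPM. The ratio of the miR-466 means was 1.03, with overlapping groups. It was 0.991 under plain CPM and 0.998 after rescaling without the 5 most abundant miRNAs, so its direction depends on the scaling. Sums are a score over chosen members, so no p is given. Fewer cells that express a miRNA and less of it per cell cannot be told apart in these bulk libraries.

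The balance of the arms was measured as log2((5p CPM + 1)/(3p CPM + 1)) for each of the 16 names with both arms. The 3p arm was the higher one in all 6 libraries for 12 names and the 5p arm for 3 (miR-466h, miR-466n and miR-466o), and miR-466c was mixed. The mean ratio ran from -5.39 for miR-466i to 7.12 for miR-466o, so names of 1 family differed in which arm was the higher. Whether single hairpins differed is not shown, because reads of a name may come from several hairpins. The 5p value of miR-466n is also that of miR-466d, whose 3p arm was the higher. In every library, the reads of miR-466b-5p were within 14.2% of those of miR-466o-5p. Names that share an arm value, such as the 3 miR-297 names, are not independent here.

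None of the 16 ratios passed in limma, where 5 of all 182 precursors (2.75%) did, each shifted to the 3p arm. At an unadjusted p under 0.05, 2 had a lower 5p to 3p ratio with RSL3 (miR-466i and miR-466h; 13.7% of all precursors did) and 0 a higher one (8.24% did), which makes 2 of 16 beside 22.0% in all. The library ranges did not overlap in 3 names, each with less 5p under RSL3 (miR-466c, miR-466h and miR-466i; 14.8% of all precursors), and in 0 with more (9.34%), beside 24.2% in either direction. Of the 16, 12 had a negative change (median -0.24), beside 106 of 182 (median -0.055) over all precursors.

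For miR-466i the ratio was -5.18, -5.02 and -4.83 in DMSO libraries 1 to 3 and -5.60, -6.17 and -5.56 in RSL3 libraries 1 to 3. The groups did not overlap, and the change was -0.77 (SE 0.22, adjusted p = 0.12 in limma). The ratio of miR-466h was 0.80, 1.34 and 1.25 and then 0.74, 0.55 and 0.42, a change of -0.56 (SE 0.20, adjusted p = 0.15 in limma). Its 5p arm remained the higher one in every library, by less in each RSL3 library than in any DMSO library. For miR-297a the ratio was -2.08, -1.50 and -1.73 and then -2.06, -2.65 and -2.13, with overlapping groups (-0.51, SE 0.23, adjusted p = 0.23 in limma).

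**Figure D5:**
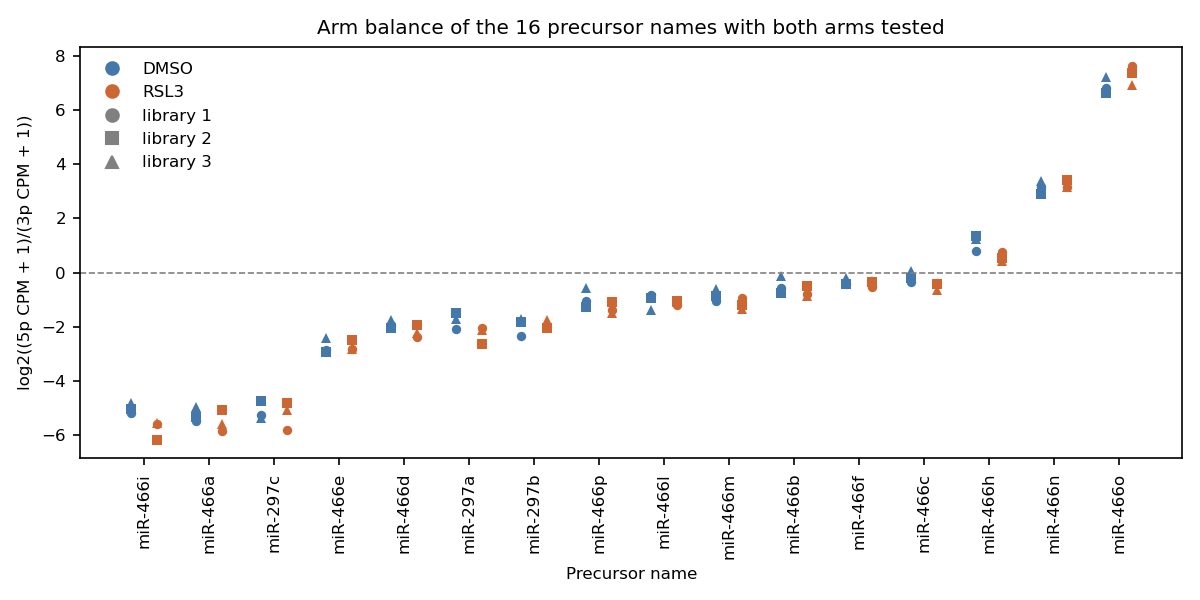
Log2 ratio of the 5p to the 3p product, as log2((5p CPM + 1)/(3p CPM + 1)), for the 16 names with both arms, in each DMSO (blue) and RSL3 (orange) library; points above 0 have more 5p. The ratio spans -5.39 (miR-466i) to 7.12 (miR-466o) on average, and the differences between groups within a name are small beside the differences between names.

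The miR-467 and miR-669 families, most of whose hairpins also lie within Sfmbt2, gave other counts. Of 39 tested entries, limma called 2 higher and 0 lower, and 20 had an unadjusted p under 0.05, against 3 of the 36 miR-466 and miR-297 entries and 17.3% of all tested miRNAs. Their library ranges did not overlap in 24 of 39 entries (61.5%), against 11 of 36 (30.6%) and 24.3% of all. In those families 16 of 18 tested 3p strands had a positive and 13 of 17 tested 5p strands a negative log2 fold change, with medians of 0.27 and -0.35. Of their 16 arm ratios, limma called 3 shifted to the 3p arm, so these are 3 of the 5 called among all 182 precursors. Ranges of the ratio did not overlap in 9 of the 16, each toward 3p, against 3 of 16 for miR-466 and miR-297 and 24.2% of all in either direction. The difference between the 2 sets of families was not tested, and many of the entries may share reads.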

How the data were processed

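Small RNA libraries of 15 to 35 nt inserts were sequenced. The submitters' processing notes name cutadapt, Bowtie, edgeR and the build GRCm38. For tool versions, the miRNA annotation and the treatment of multiply matching reads, nothing was given in the sources read. The deposited signal, which the authors named CPM, came in steps of fixed size within a library. Division by the step gave reads (100% of values whole within 0.01), and the step equalled the plain CPM of 1 read divided by a TMM factor of 0.936 to 1.05 recomputed with edgeR 4.0.16; the planned test for CPM was kept.

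Tests used limma 3.58.1 in R 4.3.3 on log2(CPM + 1), which understates changes of low miRNAs, with a variance trend and Benjamini-Hochberg adjustment over all miRNAs with at least 1 CPM in 3 libraries. DESeq2 1.42.0 and edgeR ran on the recovered reads. The scripts were tested on simulated data. Named were the 4 most abundant members per family and arm, the 3 smallest p in each direction, the 3 smallest arm-ratio p and the lowest member of each family. The members, lists and tests were chosen with earlier results of these data known.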

Additional observations from a re-analysis of the deposited data

How the results depend on the processing

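Of 36 members 0 were called higher under every alternative run. In DESeq2 and after rescaling without the 5 most abundant miRNAs 1 was called lower (miR-297a-5p in both), and leaving out 1 library gave 0 to 1, the 1 being miR-297a-5p without RSL3 library 1. Over all miRNAs, 4 were called higher as reported, 2 under plain CPM, 1 with no variance trend, 19 in DESeq2, and 1 to 14 on leaving out a library. The lower count was 1 as reported, 3 with a 10 CPM filter, 0 with median centring or with no trend, 12 after the rescaling, 2 in edgeR, 21 in DESeq2 (284 of 666 had no adjusted p) and 0 to 12 on leaving out a library. Precursors with a changed arm ratio numbered 5 as reported, 2 at a pseudocount of 0.5, 11 at one of 5, and 1 to 6 on leaving out a library; 0 of the 16 family names passed in any of these. The labels do not say whether the replicate numbers pair the samples. Deviations of same-numbered libraries correlated at -0.35, -0.33 and -0.19, and those of other-numbered libraries at 0.041 to 0.30. With 3 libraries per group these values cannot settle it. With the replicate block 1 miRNA was called higher, 0 lower and 2 precursors, and 0 members. Some log2 fold changes near 0 turned sign. Under plain CPM miR-466d-3p was at -0.033 and miR-466f at -0.056, and after the rescaling at -0.023 and -0.046. For miR-466i-3p the value was 0.032 with median centring and 0.0035 in DESeq2. On leaving out a library the range was -0.22 to 0.021 for miR-297a-3p, -0.47 to 0.057 for miR-297c-5p, -0.16 to 0.062 for miR-466b-5p, -0.062 to 0.054 for miR-466f, -0.083 to 0.059 for miR-466i-3p, -0.18 to 0.030 for miR-466j, -0.23 to 0.073 for miR-466k and -0.18 to 0.044 for miR-466o-5p. Why these values moved was not tested. The log2 ratios between groups of the levels summed within 1 family and arm moved by less than the replicate SD under each alternative. That of the miR-466 sum over all its entries moved by more, from 0.049 to -0.013 under plain CPM, beside a replicate SD of 0.029. The sums themselves depend on the scaling and on which entries are counted. Counting nearly equal entries once was chosen after seeing the data. Depth limits miR-466i-5p, miR-466l-5p and miR-466o-3p, with 3 to 29 reads per library.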
